A study of Homo sapiens with 12 samples.

Results

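The miR-183 cluster consists of 3 microRNA hairpins, miR-183, miR-96 and miR-182, transcribed together from the minus strand of human chromosome 7. Its members here were the entries of the count tables named hsa-miR-183-5p, hsa-miR-183-3p, hsa-miR-96-5p, hsa-miR-96-3p, hsa-miR-182-5p and hsa-miR-182-3p, written without the species prefix from here on. These are 6 of the 1346 human miRNA entries, and their names alone chose them. They were measured in 12 small RNA libraries of HCT116, a human colorectal carcinoma cell line, in which DICER had been restored by a rescue form of the enzyme. The rescue forms were R821E and R821A (the same arginine replaced by glutamate or by alanine), E5, A5, ΔPAZ helix and the wild-type enzyme (WT), with 2 libraries each. The sources used here do not give what E5 and A5 stand for, the state of the cells' own DICER gene, the promoter of the rescue or whether each line was 1 clone. By its title the series is about how DICER holds a precursor hairpin while cutting it, and each mutant was set against WT, R821E against R821A, and E5 against A5.

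A microRNA gene is transcribed into a long primary RNA, from which DROSHA releases a hairpin precursor. DICER then removes the loop of that hairpin and leaves a duplex of a 5p and a 3p strand, of which an Argonaute protein usually keeps 1 as the guide and discards the other. The bases near the 5′ end of the guide, the seed, pair with target mRNAs. The miR-183 cluster is known from sensory cells of the ear and retina, where seed mutations of miR-96 cause hereditary hearing loss, and its guides are often raised in colorectal tumours, where miR-96 and miR-182 are known repressors of the transcription factor FOXO1.

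All 6 strands are shown because the cluster combines guides with related seeds and 3p strands with unrelated ones. The sequences are the RefSeq mature miRNAs on GRCh38.p14, written 5′ to 3′, with the seed (bases 2 to 8) in capitals.
miR-183-5p: uAUGGCACugguagaauucacu
miR-96-5p: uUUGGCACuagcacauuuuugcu
miR-182-5p: uUUGGCAAugguagaacucacacu
miR-183-3p: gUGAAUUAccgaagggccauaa
miR-96-3p: aAUCAUGUgcagugccaauaug
miR-182-3p: uGGUUCUAgacuugccaacua
Counted from 1 at the 5′ end, the seed of miR-96-5p differs from that of miR-183-5p by A2U, and the seed of miR-182-5p differs from that of miR-96-5p by C8A. Without gaps, miR-183-5p and miR-182-5p were identical at 18 of 22 positions, against 13 of 22 for miR-183-5p and miR-96-5p. Among the 1179 entries with a RefSeq mature sequence, 1 non-member carried the seed of a member: miR-1271-5p, which has the seed of miR-96-5p and held 5 counts over all 12 libraries.

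The 3 hairpins span 4632 bases (GRCh38, chr7:129770383-129775014, minus strand), and no other annotated gene overlaps them. In the direction of transcription, miR-183 comes first (chr7:129774905-129775014), miR-96 follows after 135 bases (chr7:129774692-129774769), and miR-182 lies a further 4199 bases away (chr7:129770383-129770492). The nearest protein-coding genes are NRF1 on the plus strand, 13301 bases away, and UBE2H on the minus strand, 55718 bases away. The miR-96 hairpin is printed because the balance of its arms differed between DICER forms, as described after the levels. The 5p and 3p strands are in capitals and the 20 bases between them belong to the loop side that DICER removes.
miR-96 hairpin: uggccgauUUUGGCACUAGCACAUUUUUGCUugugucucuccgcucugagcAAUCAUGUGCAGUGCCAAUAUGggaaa

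The libraries held 144067 to 255296 miRNA counts each. On plain library totals, 3 counts, the least that sets a detection floor, correspond to 11.8 to 20.8 CPM (miRNA counts scaled to a common library total). Levels are given on scales that answer different questions. CPM after TMM normalisation (trimmed mean of M values) places a strand relative to the bulk of miRNAs in its library, while counts per 1000 counts of the 30 added spike-in RNAs place it relative to an external standard, of which the labels give no amount. Each spike-in count stood beside 14.3 ± 1.38 miRNA counts in R821E and 24.2 ± 2.49 in WT (SD, n = 2 each), with the other groups between, at 17.1 to 19.6. TMM factors stood apart in R821E (0.714 and 0.804, against 1.15 and 1.06 in WT). A factor under 1 raises the CPM of a given count, so the floor on the TMM scale is higher in R821E than on plain totals. Replicates differed by more than counting noise in every group (chi-square 3.83 to 25.6 per degree of freedom, highest in WT), and the labels do not call them separate cultures. The p-values therefore reflect the spread among these libraries alone, which may be technical. Among miRNAs that mark cell types, the 8 of colon epithelium, 7 of them counted in every library, summed to 1319 to 1339 CPM in R821E, against 2580 to 2591 CPM in WT. The 4 of fibroblasts and endothelium, all counted in every library, summed to 367 to 458 CPM in R821E and 729 to 950 CPM in WT. The 2 of neurons, 1 of them counted in every library, summed to 1209 to 1216 CPM in R821E and 489 to 496 CPM in WT. The hepatocyte marker miR-122-5p stayed between 0 and 12.2 CPM in all libraries. The 3 of erythroid cells, 2 of them counted in every library, summed to 373 to 449 CPM in R821E and 221 to 236 CPM in WT. The 4 of leukocytes, 2 of them counted in every library, summed to 155 to 208 CPM in R821E and 279 to 385 CPM in WT. Of 3 muscle markers only miR-133a-3p had an entry, at 0 to 4.50 CPM, and miR-1-3p and miR-206 had none under those names. All 12 libraries are of the HCT116 line, so these sums are miRNA levels in that line and not amounts of other cell types. The part of these markers in the results was not tested. In RNA from whole cultures, a change in some cells and a change in all cells cannot be told apart.

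The cluster was a small share of the miRNA pool in every library. Its 6 strands together made up 1.10% and 1.29% of miRNA counts in R821E, against 1.18% and 0.980% in WT, and the 12 libraries ran from 0.980% to 1.29%. The share did not pass the exact permutation test over the 6 groups (two-sided, p = 0.649). Per 1000 spike-in counts, the cluster gave 168 and 172 counts in R821E, 216 and 242 in R821A, 203 and 185 counts in E5, 225 and 221 counts in A5, 241 and 225 counts in ΔPAZ helix, and 265 and 254 in WT. Every mutant library was below both WT libraries, and the groups differed by the exact permutation test (p = 0.00173, adjusted p = 0.00866 over 5 values). Without R821E replicate 1 the adjusted p was 0.0606.

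miR-183-5p, the guide of the first hairpin and the most abundant strand of the cluster, rose in R821E relative to the bulk of miRNAs. Its level was 11985 and 12059 CPM in R821E, 6754 and 6917 CPM in R821A, 8067 and 7028 CPM in E5, 8438 and 7337 CPM in A5, 7838 and 7711 CPM in ΔPAZ helix, and 6332 and 5826 CPM in WT. Both R821E libraries stood above all others, and the lowest mutant library was above both WT libraries. Averages were 12022 ± 52.8 CPM in R821E and 6079 ± 358 CPM in WT (SD, n = 2 each), and the strand ranked 14th from the top of all entries in R821E and 22nd in WT. The log2 fold change of R821E over WT was 0.98 ± 0.13 (SE; edgeR quasi-likelihood test, adjusted p = 6.87e-05), and 0.44 with plain total counts as library size (adjusted p = 0.0180). Of the 6 members, all of which passed the filter on low counts, 2 were called higher and 0 lower in R821E at an adjusted p under 0.05. On the same scale 47.9% of all 374 tested entries were called, 23.8% higher and 24.1% lower, a larger share than that of the members. With total counts as library size 1 member was called higher and 2 lower, against 188 of the 374 entries called in either direction.

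miR-96-5p, a guide with a role in hair cell maturation, was not called on this scale. It had 1002 and 1183 CPM in R821E, 1735 and 1382 in R821A, 1247 and 1352 CPM in E5, 1177 and 1527 CPM in A5, 1507 and 1769 CPM in ΔPAZ helix, and 1467 and 1248 in WT. Both R821E libraries were below both WT libraries, with a log2 fold change of -0.32 ± 0.19 (edgeR quasi-likelihood test, adjusted p = 0.186). When library size was the plain total of miRNA counts, the fold change was -0.86 and passed the test (adjusted p = 0.00602).

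miR-182-5p, the guide whose seed lies 1 base from that of miR-96-5p, had overlapping levels in R821E and WT. Its CPM was 1949 and 2263 in R821E, 2289 and 2108 in R821A, 1705 and 2016 CPM in E5, 1920 and 1993 CPM in A5, 2232 and 2169 CPM in ΔPAZ helix, and 2316 and 1831 in WT. The log2 fold change of R821E over WT was 0.02 ± 0.16 (edgeR quasi-likelihood test, adjusted p = 0.926). Scaling by total counts turned its sign and moved it past the threshold (-0.53, adjusted p = 0.0326). Ordered by group mean, all 6 groups lay between 1860 ± 220 CPM in E5 and 2200 ± 44.4 CPM in ΔPAZ helix (SD, n = 2 each), and neighbours in that order did not differ beyond the spread of their libraries.

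**Figure D1:**
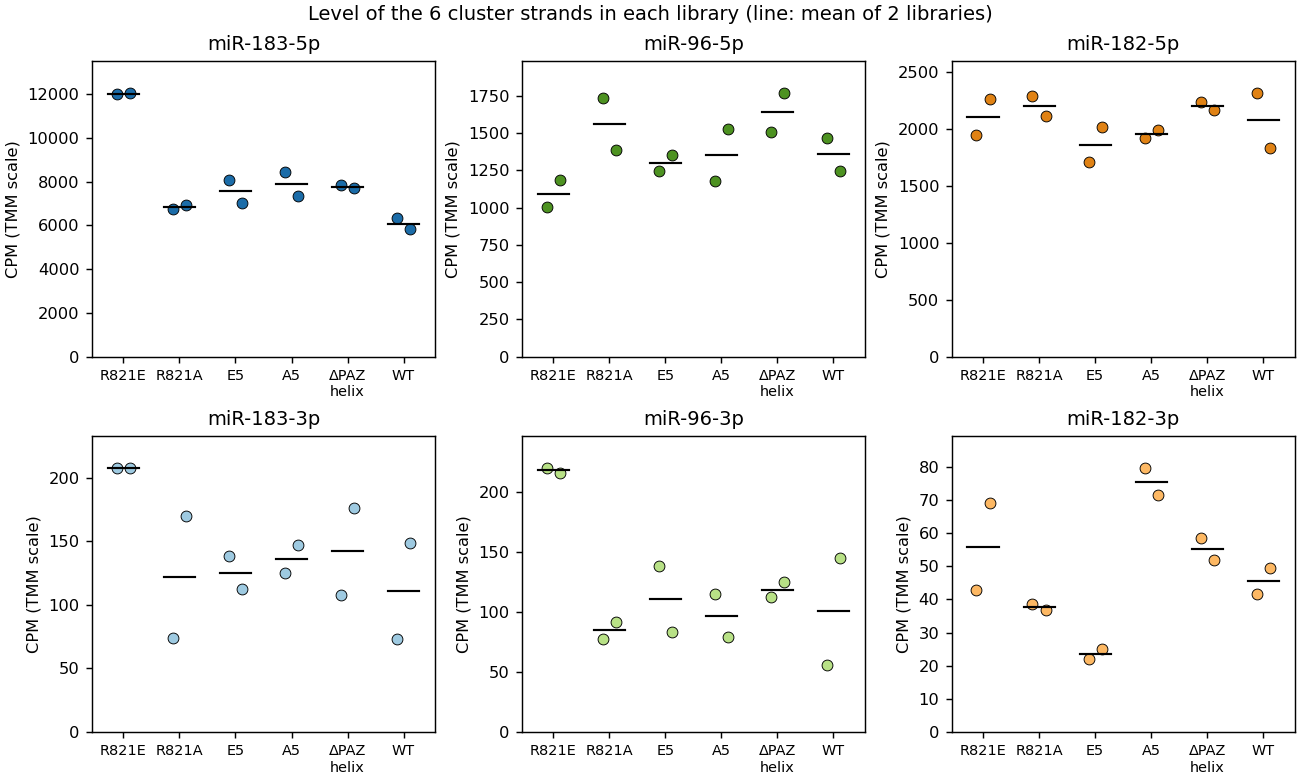
Level of each cluster strand in CPM after TMM normalisation (y axes, linear from 0) in the 2 libraries (points) of each DICER form (x axes), with lines at the group means. miR-183-5p stands at 12022 CPM on average in R821E against 6079 CPM in WT, while the points of miR-182-5p overlap between R821E and WT.

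Relative to the spike-ins, the guides miR-96-5p and miR-182-5p fell in R821E, and miR-183-5p was not called. miR-96-5p had 10.96 and 12.7 counts per 1000 spike-in counts in R821E, against 37.8 and 34.3 in WT (log2 fold change -1.61 ± 0.19, edgeR quasi-likelihood test, adjusted p = 6.30e-06). miR-182-5p had 21.3 and 24.3 in R821E, against 59.7 and 50.4 in WT (log2 fold change -1.27 ± 0.17, adjusted p = 1.66e-05). miR-183-5p had 131 and 130 counts per 1000 spike-in counts in R821E, against 163 and 160 in WT, with no overlap, at a log2 fold change of -0.31 ± 0.15 (edgeR quasi-likelihood test, adjusted p = 0.0805). The median of all tested entries on this scale was -1.38, and on the TMM scale -0.10. On the spike-in scale 2 of 6 members were called, both lower, against 60.7% of all tested entries, with 60.4% lower.

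What did not depend on scaling was the balance of the 3 guides within a library. In R821E, miR-183-5p made up 76.6% ± 1.71 of the cluster's counts, miR-182-5p 13.4% ± 1.06 and miR-96-5p 6.95% ± 0.633 (SD, n = 2). In WT these shares were 62.3% ± 1.01 for miR-183-5p, 21.2% ± 1.92 for miR-182-5p and 13.9% ± 0.546 for miR-96-5p. R821A lay next to WT, with 63.1% ± 2.14 for miR-183-5p, 20.3% ± 0.833 for miR-182-5p and 14.4% ± 2.06 for miR-96-5p. The remaining mutants lay between WT and R821E in the share of miR-183-5p. It was 71.3% and 66.2% in the E5 libraries, 71.2% and 65.8% in A5, and 66.1% and 64.2% in ΔPAZ helix. All of these were above both WT libraries and below both R821E libraries.

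**Figure D2:**
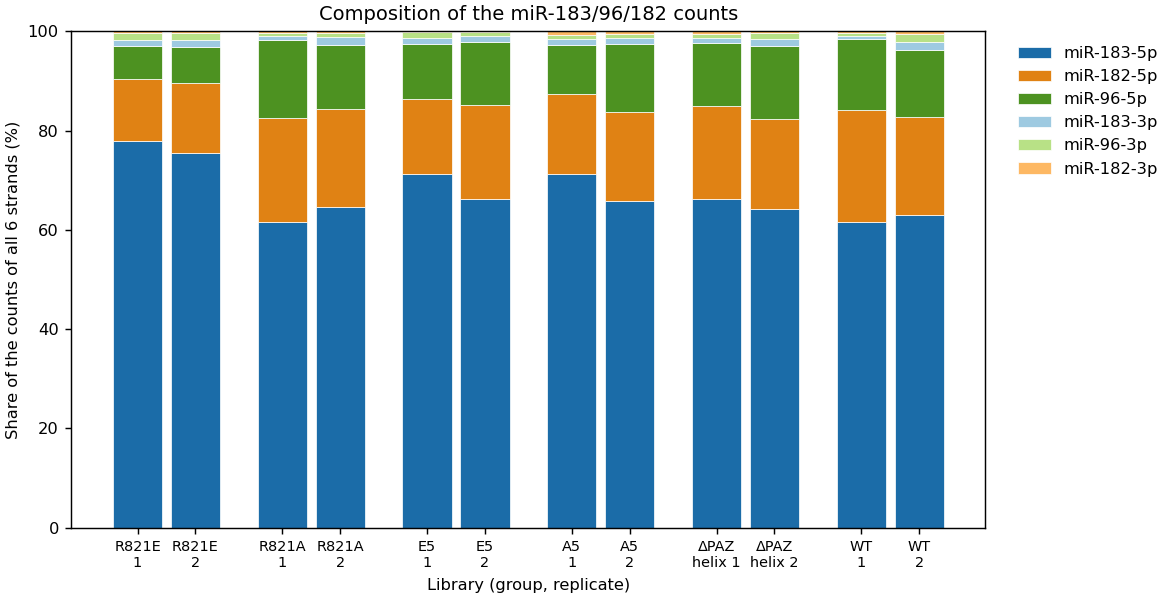
Share of the counts of all 6 cluster strands (y axis, percent) taken by each strand in each library (x axis, DICER form and replicate). miR-183-5p takes 75.4% and 77.8% in the R821E libraries, more than in any other library, and 61.6% and 63.0% in the WT libraries.

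The ratio of miR-183-5p to miR-96-5p was 11.96 and 10.2 in R821E, against 4.32 and 4.67 in WT. Ratios in the other mutants ran between 3.89 in an R821A library and 7.17 in an A5 library, so R821E stood outside all of them. As log2 of miR-96-5p over miR-183-5p, R821E was 1.30 below WT: the means were -3.46 ± 0.16 in R821E and -2.17 ± 0.08 in WT (SD, n = 2 each). The difference from WT was -0.37 in E5 and -0.39 in A5, without overlap of the libraries. In ΔPAZ helix (-0.08) and R821A (0.02) the libraries overlapped those of WT. The exact permutation test over the 6 groups gave p = 0.0322, which did not pass after adjustment over 5 values (adjusted p = 0.0537), and without A5 replicate 2 it did (adjusted p = 0.0354).

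For miR-182-5p the pattern had the same direction. There were 6.15 and 5.33 counts of miR-183-5p per count of miR-182-5p in R821E, against 2.73 and 3.18 in WT, a log2 difference of -0.96 in the ratio of miR-182-5p to miR-183-5p. The same difference from WT was -0.46 in E5, -0.45 in A5 and -0.26 in ΔPAZ helix, each without overlap of the libraries. In R821A it was -0.08, with overlap. The groups differed by the exact permutation test (p = 0.0188, adjusted p = 0.0469), a call that held without either E5 replicate or A5 replicate 2 and was lost in the other 9 of 12 removals of a single library (adjusted p from 0.0204 to 0.157 over all removals). Between miR-182-5p and miR-96-5p the ratio was 1.95 and 1.91 in R821E, against 1.58 and 1.47 in WT, and this ratio did not pass (exact permutation test, p = 0.0981, adjusted p = 0.123). Each of these p-values asks whether any of the 6 groups differ, since 2 libraries against 2 cannot give an exact p below 0.333.

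**Figure D3:**
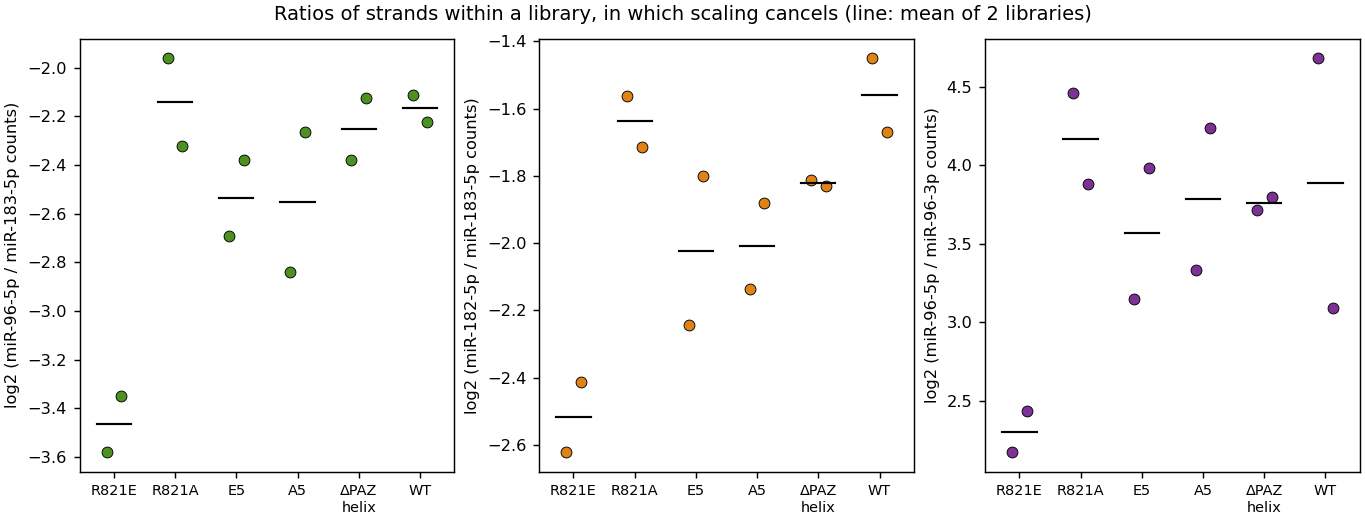
Log2 ratios of counts within a library (y axes) for miR-96-5p over miR-183-5p, miR-182-5p over miR-183-5p, and miR-96-5p over miR-96-3p, by DICER form (x axes), with points for libraries and lines for group means. The R821E libraries are the lowest in each panel, with means of -3.46, -2.52 and 2.30 against -2.17, -1.56 and 3.89 in WT.

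The 3p strands, the usual passengers of these hairpins, were counted at 4 to 39 counts per library. miR-96-3p rose in R821E, with 36 and 25 counts (220 and 216 CPM), against 16 and 38 counts (55.5 and 145 CPM) in WT. Both R821E libraries were above both WT libraries, but the WT libraries were far apart. Its log2 fold change was 1.13 ± 0.41 (edgeR quasi-likelihood test, adjusted p = 0.0344). The call was lost when WT replicate 1 (0.63, adjusted p = 0.206), R821E replicate 1 (1.15, adjusted p = 0.118) or R821E replicate 2 (1.22, adjusted p = 0.0821) was left out, with total-count scaling (0.60, adjusted p = 0.221) and with no filter on low counts (0.97, adjusted p = 0.0995). Without WT replicate 2 it was 1.96 (adjusted p = 0.00258). Relative to the spike-ins it was not called (-0.17 ± 0.43, edgeR quasi-likelihood test, adjusted p = 0.773).

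Its direction on the TMM scale was the less common one for a 3p strand. Of 148 tested 3p entries, 18 were called higher and 56 lower in R821E against WT, with a median log2 fold change of -0.58. Of 174 tested 5p entries, 50 were higher and 28 lower, with a median of 0.17. miR-183-3p had 208 and 207 CPM in R821E, against 72.8 and 149 CPM in WT, and was not called (0.91 ± 0.43, edgeR quasi-likelihood test, adjusted p = 0.0900), while without WT replicate 2 it was (1.504, adjusted p = 0.0232). miR-182-3p had 42.8 and 69.1 CPM in R821E, overlapping the 41.6 and 49.6 CPM in WT (0.25 ± 0.44, adjusted p = 0.681).

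The balance of the arms of miR-96, the hairpin printed with its strands in capitals, moved toward 3p in R821E. There were 4.56 and 5.48 counts of miR-96-5p per count of miR-96-3p in R821E, 22.5 and 15.1 in R821A, 9.04 and 16.2 counts in E5, 10.3 and 19.3 counts in A5, 13.4 and 14.2 counts in ΔPAZ helix, and 26.4 and 8.61 in WT. The R821E libraries were the lowest of all 12, and the WT pair lay outside all libraries of the other mutants on both sides. The 3p strand was 18% and 15.4% of miR-96 counts in R821E, against 3.64% and 10.4% in WT.

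The shift of the log2 5p/3p ratio of miR-96 was -1.58 ± 0.52 in R821E against WT (limma, adjusted p = 0.0284), the third lowest among the 69 hairpins whose arms each averaged 20 counts or more. The median shift of the 69 hairpins was 0.40; 55.1% were called, 15.9% of the 69 toward 3p and 39.1% toward 5p. Against R821A the shift was -1.87 ± 0.52 (limma, adjusted p = 0.0141), the lowest of the 69, of which 37.7% were called, 33.3% toward 5p and 4.35% toward 3p. Both calls rest on few 3p counts: against WT the shift was -2.38 without WT replicate 2 (adjusted p = 0.00407), and the call was lost without WT replicate 1 (-0.79, adjusted p = 0.221), R821E replicate 1 (adjusted p = 0.108) or R821E replicate 2 (adjusted p = 0.0763), and against R821A without either R821E replicate or R821A replicate 1 (adjusted p up to 0.125).

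The arm ratio of miR-183, the neighbouring hairpin, was not called. Its 5p/3p ratio was 57.7 and 58.2 in R821E, against 87.0 and 39.2 in WT, and the WT libraries lay on both sides of the R821E ones. The log2 shift was -0.01 ± 0.46 in R821E against WT (limma, adjusted p = 0.984), and its sign turned without WT replicate 1 (0.56, adjusted p = 0.392). miR-182 was outside this test, as its 3p strand averaged 10.6 counts. With the minimum lowered to 5 counts, which let 112 hairpins in, its shift was -0.27 ± 0.30 (limma, adjusted p = 0.502).

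**Figure D4:**
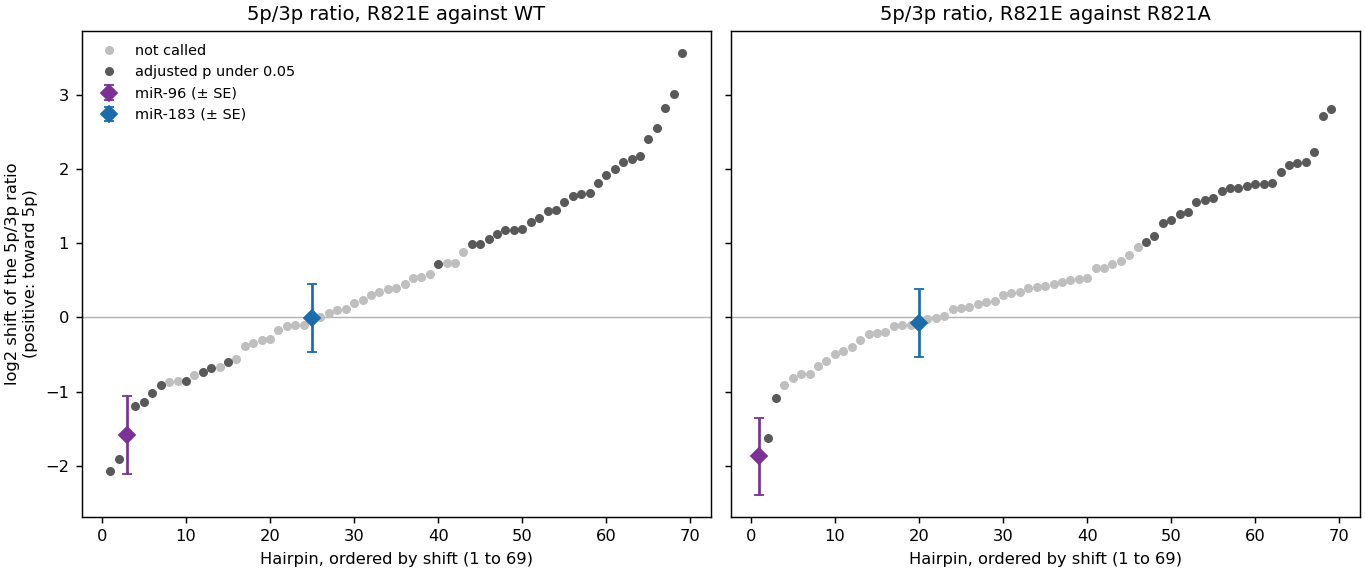
Log2 shift of the 5p/3p ratio (y axis) of the 69 tested hairpins, ordered along the x axis from the lowest to the highest, for R821E against WT and R821E against R821A. miR-96 (purple, ± SE) is the third lowest at -1.58 and lowest at -1.87, and miR-183 (blue, ± SE) lies near 0.

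Glutamate and alanine at this residue were also compared directly, and no member's call on the TMM scale held under every alternative. Against R821A, 3 of 6 members were called in R821E on the TMM scale: miR-183-5p higher (0.81 ± 0.13, edgeR quasi-likelihood test, adjusted p = 4.89e-04), miR-96-3p higher (1.37 ± 0.42, adjusted p = 0.0203) and miR-96-5p lower (-0.52 ± 0.19, adjusted p = 0.0439). Of all tested entries 41.4% were called, 21.9% higher and 19.5% lower, a share near that of the members. The call of miR-96-5p was lost without any 1 of the 4 libraries, under DESeq2 (adjusted p = 0.106), with its size factors (adjusted p = 0.0609) and with a replicate block (adjusted p = 0.0594). That of miR-96-3p was lost without R821E replicate 1, R821E replicate 2 or R821A replicate 1. Total-count scaling ended the calls of both miR-96-3p (0.85, adjusted p = 0.111) and miR-183-5p (0.30, adjusted p = 0.106). miR-182-5p was at -0.06 ± 0.16 (adjusted p = 0.755) and was called lower with total-count scaling (-0.58, adjusted p = 0.0250). miR-183-3p (0.80 ± 0.43, adjusted p = 0.146) and miR-182-3p (0.52 ± 0.45, adjusted p = 0.407) were not called, although miR-183-3p was when R821A replicate 2 was left out (1.52, adjusted p = 0.0358).

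Per 1000 spike-in counts, miR-96-5p had 10.96 and 12.7 in R821E, against 34.2 and 31.3 in R821A (-1.47 ± 0.19, edgeR quasi-likelihood test, adjusted p = 2.60e-05). miR-182-5p had 21.3 and 24.3 in R821E, against 45.1 and 47.7 in R821A (-1.03 ± 0.17, adjusted p = 1.72e-04). Both fell, as 2 of 6 members against 49.2% of all tested entries called and 48.9% called lower. The median of all 374 tested entries on this scale was -1.02. Ranked from the lowest fold change, miR-96-5p was 124th and miR-182-5p 187th, so miR-182-5p fell about as much as the middle entry. miR-183-5p was at -0.15 ± 0.15 (adjusted p = 0.460), with 131 and 130 counts per 1000 in R821E, against 133 and 157 in R821A.

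In the other rescue forms no cluster member was called relative to the bulk of miRNAs. On the TMM scale 0 of 6 members were called in R821A, E5, A5 or ΔPAZ helix against WT by edgeR's quasi-likelihood test, where 3.21%, 9.09%, 0.267% and 0.267% of tested entries were called in that order of mutants. At an unadjusted p under 0.05 the members counted were 0 in R821A, 1 in E5, 1 in A5 and 1 in ΔPAZ helix. Of all 374 tested entries, 39, 88, 52 and 44 were under it, in the same order. DESeq2 called 0 members in these mutants, against 11, 17, 2 and 3 of all entries. For miR-183-5p the log2 fold changes over WT were 0.17 ± 0.13 in R821A (adjusted p = 0.701), 0.31 ± 0.13 in E5 (0.169), 0.38 ± 0.13 in A5 (0.203) and 0.35 ± 0.13 in ΔPAZ helix (0.267). These comparisons share the WT libraries. For the 5p/3p ratio, neither miR-183 nor miR-96 was called in these 4 mutants (limma). There 0% of the 69 hairpins were called in R821A and A5 and 1.45% in E5 and ΔPAZ helix. Neither had an unadjusted p under 0.05, against 8 of the 69 hairpins in R821A, 12 in E5, 6 in A5 and 8 in ΔPAZ helix. With the minimum of 5 counts, miR-182 shifted by 0.71 ± 0.30 in E5 (limma, unadjusted p = 0.0398, adjusted p = 0.302) and by -0.79 ± 0.30 in A5 (unadjusted p = 0.0258, adjusted p = 0.412).

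On the spike-in scale, E5 and A5 had cluster members below WT, where the median of all 374 tested entries was also below 0. That median was -0.56 in E5 and -0.46 in A5. Ranked from the lowest fold change in E5, miR-182-5p was 147th, miR-96-5p 165th and miR-182-3p 41st. In A5, miR-182-5p was 148th. In E5, 3 of 6 were called lower, against 27.3% of tested entries: miR-182-5p (-0.75 ± 0.16, edgeR quasi-likelihood test, adjusted p = 0.00496), miR-96-5p (-0.65 ± 0.18, adjusted p = 0.0185) and miR-182-3p (-1.51 ± 0.46, adjusted p = 0.0272). miR-182-5p had 30.5 and 35.1 counts per 1000 spike-in counts in E5, against 59.7 and 50.4 in WT, with no overlap. In a fit of these 4 libraries alone 0 of the 3 were called, and 1 member was called without either E5 replicate and 2 without either WT replicate. In A5, miR-182-5p was the 1 member called lower (36.4 and 39.4 counts per 1000 in A5, against 59.7 and 50.4 in WT; -0.54 ± 0.16, edgeR quasi-likelihood test, adjusted p = 0.0465), against 14.7% of tested entries, and this call was lost without WT replicate 1 or either A5 replicate. In R821A and ΔPAZ helix 0 members were called on this scale, against 4.28% and 13.1% of tested entries. At an unadjusted p under 0.05 there were 0 members in R821A and 1 in ΔPAZ helix, against 73 and 118 of all 374 tested entries.

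**Figure D5:**
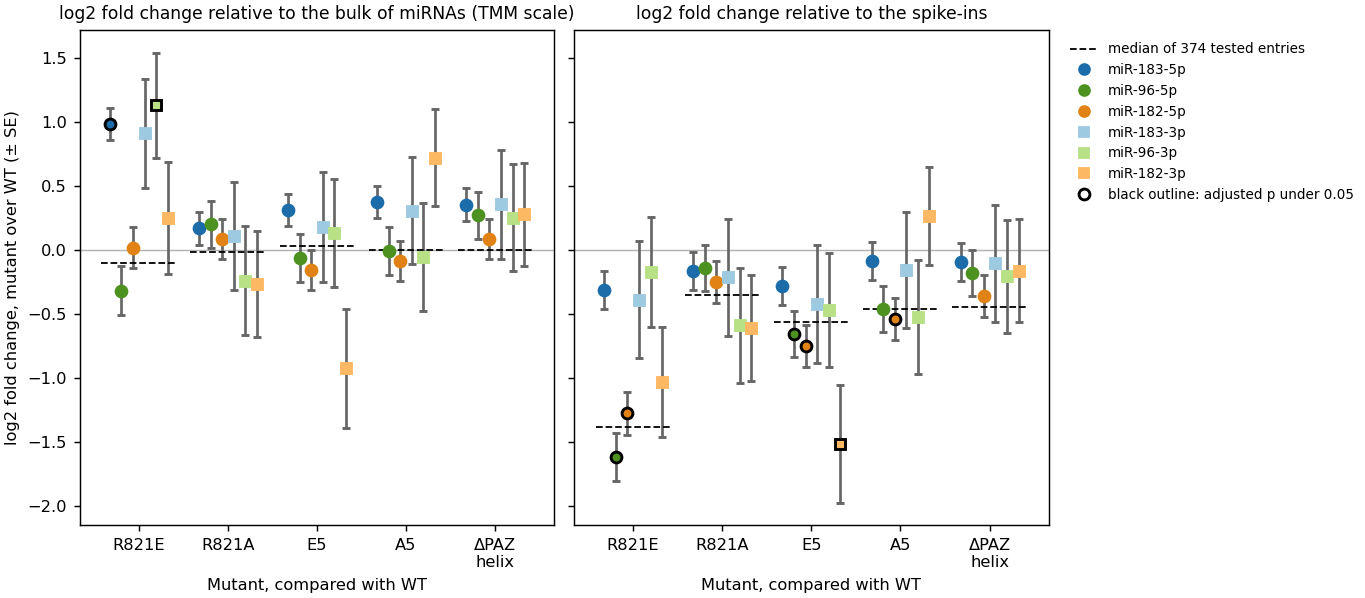
Log2 fold change of each cluster strand over WT (y axis, ± SE from edgeR) in each mutant (x axis), relative to the bulk of miRNAs on the left and to the spike-ins on the right. Black outlines mark an adjusted p under 0.05 and dashed lines the median of 374 tested entries, which is -0.10 on the left and -1.38 on the right in R821E.

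E5 and A5 were set against each other as well, and 0 of 6 members were called (edgeR quasi-likelihood test), as were 0% of all tested entries on either scale and 0% of the 69 hairpins for the arm ratio, which miR-182 did not enter. DESeq2 called 0 members and 0 of all entries. At an unadjusted p under 0.05 on the TMM scale there were 36 of all 374 tested entries, with 1 member among them, miR-182-3p, the passenger of the last hairpin. It had 4 and 6 counts in E5, against 16 and 19 in A5, with no overlap and with WT between, at 12 and 13. The log2 fold change was -1.64 ± 0.44 (edgeR quasi-likelihood test, adjusted p = 0.297), and leaving out a library gave -1.74 to -1.56. The E5 counts are the lowest of any member in any group. With the minimum of 5 counts, the log2 5p/3p ratio of miR-182 was 6.10 and 6.22 in E5, against 4.55 and 4.77 in A5, a shift of 1.504 ± 0.30 that did not pass after adjustment over 112 hairpins (limma, unadjusted p = 6.30e-04, adjusted p = 0.0706).

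The group means of the 3 guides were not closely alike over the 6 groups. Neighbouring group means of miR-182-5p did not differ beyond the spread of their libraries, which limits its r values. Across the 6 group means of log2 CPM, Pearson's r was -0.67 between miR-183-5p and miR-96-5p, 0.04 between miR-183-5p and miR-182-5p, and 0.45 between miR-96-5p and miR-182-5p. These are descriptions over 6 points that share their libraries and scaling. Among 245 other entries averaging 100 CPM or more, the most like miR-183-5p were miR-181a-3p (r = 0.997), miR-221-5p (0.988) and miR-4454 (0.987). Each was highest in R821E, as in miR-181a-3p with 2356 ± 253 CPM in R821E and 971 ± 358 CPM in WT (SD, n = 2 each). The most like miR-96-5p were miR-132-3p (0.924), miR-27b-5p (0.919) and miR-222-5p (0.912), and the most like miR-182-5p were miR-1296-5p (0.919), miR-192-5p (0.752) and miR-27b-5p (0.711). Some of these moved little: group means of miR-27b-5p ran from 152 CPM in E5 to 171 CPM in R821A, with an SD of 62.7 in R821E. Those of miR-1296-5p ran from 676 CPM in A5 to 775 CPM in R821A, with an SD of 207 in R821A.

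Other miRNAs that share a transcript or are raised in colorectal tumours also moved unevenly in R821E against WT on the TMM scale, on which 47.9% of all tested entries were called. Relative to the spike-ins the calls in these lists were all lower. On that scale 60.4% of all tested entries were called lower and 0.267% higher, with a median of -1.38. In the miR-17-92 cluster, whose guides promote proliferation, 4 of 12 strands were called higher and 4 lower, with a median log2 fold change of -0.36; relative to the spike-ins 0 were higher and 10 lower (median -1.64). miR-92a-3p fell (-1.58, edgeR quasi-likelihood test, adjusted p = 1.41e-06), miR-20a-5p rose (0.60, adjusted p = 0.00385), although relative to the spike-ins it fell (-0.70, adjusted p = 0.00407), and miR-17-5p was at -0.13 (adjusted p = 0.636). The main strands of that cluster spanned 2.66 log2 units over 6 strands, from miR-92a-3p to miR-18a-5p (1.08). The guides of the miR-183 cluster spanned 1.30 over 3. These spans are not alike in kind, since the first mixes 5p and 3p strands and the second holds 5p strands only. Over all tested entries the median was 0.17 for 5p and -0.58 for 3p. In the miR-200 family, which keeps epithelial cells from turning mesenchymal, 2 of 6 tested strands (of 9 listed) were called higher and 3 lower, with a median of -0.67, against 0 higher and 4 lower relative to the spike-ins (median -1.95), and miR-200b-3p fell (-0.65, adjusted p = 0.00808). Of 4 further miRNAs raised in colorectal cancer, miR-21-5p, an inhibitor of tumour suppressor mRNAs, rose (1.01, adjusted p = 2.62e-04), and the other 3 were not called; relative to the spike-ins miR-21-5p was at -0.29 (adjusted p = 0.224) and the other 3 fell. The cluster's own median was 0.58 over 6 strands and that of all tested entries -0.10.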

How the data were processed

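Total RNA of HCT116 cells was made into AQ-seq small RNA libraries, a protocol with reduced ligation bias, and sequenced on an Illumina NovaSeq, per the labels' protocols. The authors deposited raw counts per miRNA entry, with 30 spike-in entries beside them and no normalization. The submitters' processing notes name cutadapt, BWA, bedtools, hg38 and mm10. The sources used here do not give versions, roles or the treatment of reads matching several miRNAs, and the similar miR-183-5p and miR-182-5p are uncertain to that extent. While 0 other entries had counts identical to a member's, this cannot show whether reads were shared in part.

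From these counts, edgeR 4.0.16 (robust quasi-likelihood, 1 fit over 12 libraries with 6 residual degrees of freedom) tested the 374 miRNA entries kept by filterByExpr, 99.6% of miRNA counts, with TMM factors or with summed spike-in counts as library size. Benjamini-Hochberg adjustment ran over all tested entries, with a threshold of 0.05. Arm balance was log2((5p + 0.5)/(3p + 0.5)), tested in limma 3.58.1 (trend, robust). Single values per library were tested by exact permutation of the libraries over 6 groups of 2. DESeq2 1.42.0 was an alternative. Scripts were tested on simulated counts. CPM floors cover counting error only, and amplified reads are not independent molecules. The members and lists were chosen with earlier results of these data known. Named were the members, entries sharing a seed, the 3 most alike entries per guide and up to 3 most abundant members of each list.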

Additional observations from a re-analysis of the deposited data

How the results depend on the processing

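Alternatives were DESeq2, its size factors, total-count scaling, no filter, a replicate block, a fit of the 4 libraries compared, other count minimums and pseudocounts for arm ratios, and leaving out each library. For single strands and arm ratios, 202 of 257 alternative values kept direction and side of the threshold, 40 lost a call in the same direction, 4 gained one in the same direction and 11 reversed, 1 of them (miR-182-5p with total counts) with a call. The rise of miR-183-5p in R821E against WT kept its call throughout, at 0.44 (total counts) to 1.09, as did the falls of miR-96-5p and miR-182-5p there relative to spike-ins. The cause of the changes below was not tested.

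Members called in R821E against WT numbered 3 with total counts (miR-183-5p higher, miR-96-5p and miR-182-5p lower), where 188 of all entries were called. They numbered 1 with no filter, where 164 of all entries were called. When a library was left out they numbered 1 to 3, and 1 to 3 against R821A. Cluster hairpins shifted in R821E against WT numbered 0 at a minimum of 5 counts, where miR-96 kept -1.58 (limma, adjusted p = 0.0536) and 34 of 112 hairpins were called. They numbered 0 at 100, where no cluster hairpin could enter, and 0 to 1 without a library. Against R821A they numbered 0 at 100 and 0 to 1 without a library. On the spike-in scale, E5 members called numbered 0 with 4 libraries and 1 to 2 without a library, and A5 members 0 with no filter, with the replicate block, with 4 libraries, and 0 to 1 without a library. Removing 1 library gave exact permutation p of 0.00529 to 0.0834 for miR-182-5p to miR-183-5p, 0.0141 to 0.0941 for miR-96-5p to miR-183-5p, and 0.00077 to 0.0121 for cluster counts per spike-in.

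Reversed in R821E against WT were miR-182-5p (-0.53 with total counts, -0.16 with no filter, -0.14 to 0.24 without a library), miR-182-3p (-0.29 with total counts, -0.0126 to 0.63 without a library) and the miR-183 arm ratio (-0.58 to 0.56 without a library). Against R821A they were miR-182-3p (-0.0031 with total counts), miR-182-5p (-0.11 to 0.0576 without a library) and the miR-183 arm ratio (-0.65 to 0.50).

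Replicate numbers did not pair the libraries: over 15 pairs of groups, deviations of same-numbered libraries correlated at -0.50 to 0.37, above 0.1 in 1. A negative correlation means that libraries of unlike number deviated alike. Structure shared across the numbers was not tested. With the number as a replicate block, 2 members were called in R821E against WT, where 171 of all tested entries were called. Under the same block 2 members were called against R821A and 0 in A5 on the spike-in scale. Depth limits the 3p strands, at 4 to 39 counts per library.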
